A study of Saccharomyces cerevisiae with 6 samples.

Results

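The 3′ splice sites described here are unannotated and lie upstream of the annotated 3′ splice site (3′SS) of a budding yeast intron, so that their use leaves the last stretch of the intron in the spliced RNA. Each is a nuclear splice junction with the 5′ end and strand of an annotated junction, GT-AG or GC-AG ends, and a 3′ end 1 to 1000 nt upstream of the annotated 3′SS. Members were chosen by their read counts, as those with at least 2 uniquely mapped split reads summed over the 6 libraries, so that their detection is not a finding. The rule gave 151 sites in 97 introns of 95 genes, of 794 unannotated junctions that share an end with an annotated junction and have 2 or more reads. All 151 had GT-AG ends. Of the members, 4 had exactly 2 reads, and 5 further sites with 1 read fell just outside the rule.

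RNA was taken from log phase cells in YPDA medium of 3 strains, with 2 independent biological replicates of each. RPB1 encodes the catalytic subunit of RNA polymerase II (RNAPII). Its allele was rpb1-G1097D in fast, which elongates faster, and rpb1-H1085Y in slow, which elongates more slowly, while WT carried RPB1. In all of them the chromosomal gene is deleted and the allele is on a centromeric LEU2 plasmid, RPB3 carries a TAP tag, and UPF1 is deleted, WT included. Each strain was set against WT to ask whether the elongation rate changes where introns end.

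In the spliceosome, the 3′SS is chosen after the branch point. The adenosine of the branch point, which in yeast lies in the motif UACUAAC, attacks the 5′SS to form a lariat, and the 5′ exon is then joined to an AG downstream of it, preferably one preceded by a pyrimidine. An AG upstream of the motif needs another branch point. UPF1 is a factor of nonsense-mediated decay (NMD), the pathway that removes RNAs with a premature stop codon, so that its deletion leaves many misspliced RNAs in the cell.

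The libraries held 6863818 and 6666947 unique split reads in fast, 4127729 and 5517128 in slow, and 6057538 and 5340550 in WT. The junction tables do not show the alleles, so the strain labels were not checked against a genotype here. The splicing error frequency (SEF) of a site relates its unique reads to those of the annotated junction of the same intron and library, and is given in percent. It can exceed 100% where the unannotated site is read more often. Members held 33244 reads, with 50.1% of them in 6 sites. Only 41 of 151 members were read in all 6 libraries and 47 were read in a single library, and 112 passed the minimum for testing of 10 reads at both the unannotated and the annotated junction over the libraries.

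Sites fell into 2 classes of similar size. The branch point motif of an intron was taken as the window with the fewest mismatches to TACTAAC, read on the transcribed strand only, with its A 8 to 200 nt before the end of the intron. Of 267 annotated introns, 220 (82.4%) held the exact motif, 44 held it with 1 mismatch and 3 with 2. Of the members, 77 lay between the motif and the annotated 3′SS, and 74 lay upstream of the motif. The windows between the motif and the annotated end are shown for 9 introns whose sites are described below, from the RefSeq R64 genome and 5′ to 3′. Capitals mark the motif, the last 3 bases of every unannotated intron that ends in the window, and the last 3 bases of the annotated intron.
SEC14: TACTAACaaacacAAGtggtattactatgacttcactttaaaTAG
RPL34A: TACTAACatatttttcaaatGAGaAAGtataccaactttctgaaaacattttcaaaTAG
SPT14: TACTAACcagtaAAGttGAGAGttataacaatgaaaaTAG
APE2: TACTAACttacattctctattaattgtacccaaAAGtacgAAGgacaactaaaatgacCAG
UBC12: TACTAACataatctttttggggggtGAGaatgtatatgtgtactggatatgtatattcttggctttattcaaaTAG
RPS23B: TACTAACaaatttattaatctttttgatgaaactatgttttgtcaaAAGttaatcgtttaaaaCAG
RPL16A: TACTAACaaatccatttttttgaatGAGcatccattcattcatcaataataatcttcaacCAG
UBC8: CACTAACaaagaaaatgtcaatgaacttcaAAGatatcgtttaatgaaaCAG
YBR062C: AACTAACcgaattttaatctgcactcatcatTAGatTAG
In 7 of these 9 windows every unannotated site ended in AAG or GAG before an annotated CAG or TAG, with an exact motif in front of it. The SPT14 sites 20 and 18 nt from the annotated 3′SS overlap, and the nearer one had 6 reads. UBC8 and YBR062C held the motif with 1 mismatch, at its position 1. YBR062C and the choice of windows lie outside the rule for named sites and were chosen after their values were seen.

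The windows lie at chromosome XIII 425109 to 425153 (SEC14, plus strand), V 269752 to 269810 (RPL34A, minus), XVI 218707 to 218746 (SPT14, plus), XI 155594 to 155654 (APE2, plus), XII 744212 to 744287 (UBC12, plus), XVI 795329 to 795394 (RPS23B, plus), IX 99096 to 99158 (RPL16A, minus), V 131848 to 131899 (UBC8, plus) and II 366503 to 366541 (YBR062C, minus). Each is the end of an intron in the coding region of its gene.

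For the sites upstream of the motif, the bases in front of them were searched for the closest match to TACTAAC with its A 8 to 60 nt before the site. Of these 74 sites, 20 had a window with 1 mismatch, 37 with 2 and 17 with 3. The stretch from that window to the site is shown for 6 sites described below, each with a higher SEF in both mutants than in WT. They were chosen after their values were seen, and are named by gene and distance to the annotated 3′SS in nt. Capitals mark the window and the last 3 bases of the unannotated intron.
RPL26B 198: TGCTGACataaattccggcttTAG
RPL26B 397: TGTTAACataaaatgcAAGAG
RPL13B 330: AACTAATgcctaaacTAGctgtgTAG
RPS7A 343: GAGTAACaaaggaaaaAAG
RPL37A 303: TATTGACgaccgtgGAG
LSM2 47: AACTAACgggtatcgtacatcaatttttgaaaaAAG
The RPL13B stretch ends with a second site 322 nt from the annotated 3′SS, and the RPL26B 397 stretch with an overlapping site 395 nt from it. They lie at chromosome VII 556086 to 556109 and 555892 to 555912 (RPL26B, plus strand), XIII 551124 to 551149 (RPL13B, minus), XV 505977 to 505995 (RPS7A, plus), XII 522709 to 522725 (RPL37A, plus) and II 170722 to 170757 (LSM2, plus). A match to the motif is a description of these letters and does not show that the branch forms there. For RPL13B alone among these, the study cites lariat sequencing by others that found a cryptic branch point upstream of both sites. Its letters, AACTAAT, are those of the window shown.

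The share of AGs that were used differed with their position, which describes the members and tests nothing, since reads chose them. In the 209 annotated introns with at least 1000 reads, 2496 AG dinucleotides lay at least 40 nt from the 5′SS and before the annotated 3′SS. Between the motif and the annotated 3′SS, 71 of 175 AGs (40.6%) were members, whereas upstream of the motif 72 of 2321 (3.1%) were. Counted from the A of the motif to the G of the AG, 6 of 44 AGs at 2 to 5 nt were members, 13 of 32 at 6 to 8 nt and all 13 of 13 at 9 to 12 nt. Farther away 14 of 18 at 13 to 20 nt, 16 of 22 at 21 to 30 nt and 7 of 12 at 31 to 50 nt were members, and 2 of 34 beyond 50 nt. The median member of this class lay 15 nt after the A, with quartiles of 9 and 27 nt, and 43 of the 77 were the first AG after the motif. Upstream of the motif, 18 of 103 AGs (17.5%) were members where the closest window in front of them had 1 mismatch, 37 of 990 (3.74%) with 2, 17 of 1113 (1.53%) with 3, and 0 of 115 with 4 or more. Neighbouring AGs of an intron can share the same window.

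**Figure D1:**
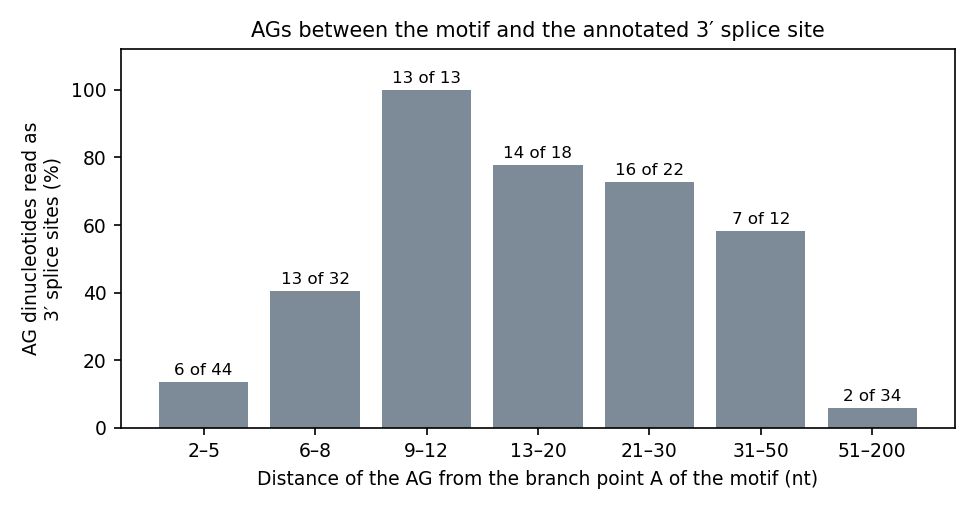
Share of AG dinucleotides between the branch point motif and the annotated 3′ splice site that were members, in percent, by distance from the A of the motif in nt. The labels give members of all AGs in each bin. The share is highest at 9 to 12 nt, with 13 of 13, and lowest beyond 50 nt, with 2 of 34.

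The bases before the AG differed between the classes. Between the motif and the annotated site, 39 of 77 sites ended in AAG, 20 in GAG, 9 in CAG and 9 in TAG. Of the sites upstream of the motif, 28 of 74 ended in TAG, 22 in AAG, 19 in CAG and 5 in GAG. The annotated 3′SS of the same 97 introns ended in TAG at 58, in CAG at 36 and in AAG at 3, and none ended in GAG. These counts can be set against the AGs that the introns hold. Between motif and site, 35 of 79 AAGs (44.3%), 20 of 43 GAGs (46.5%), 8 of 32 CAGs (25%) and 8 of 21 TAGs (38.1%) of well-read introns were members. Upstream of the motif the shares were 22 of 877 AAGs (2.51%), 5 of 494 GAGs (1.01%), 18 of 416 CAGs (4.33%) and 27 of 534 TAGs (5.06%). Where an upstream CAG or TAG also had a window with 1 mismatch in front of it, 10 of 37 (27%) were members, against 62 of 2284 (2.71%) of the other upstream AGs.

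Every site would change the protein. Each of the 151 sites lay in an intron of the coding region, and the retained bases shifted the frame at 105 of them, all with a stop codon before the annotated length was reached. At 34 the frame was kept but a premature stop codon was met, and 12 added codons without a stop. APE2, an aminopeptidase gene, gave the most reads of the last kind, at a site 18 nt upstream that adds 6 codons. Since NMD lacks UPF1 in all 3 strains, these counts do not describe what is left in UPF1 cells.

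The sites were used at very different frequencies in ribosomal protein (RP) and other transcripts. RP genes were taken by symbol, as RPL or RPS and a digit. By this rule RPP1B, the gene of a ribosomal stalk protein, counts as non-RP. The mean SEF over the 6 libraries had a median of 0.0163% over the 48 tested sites of RP genes, with a range of 0.00234 to 1.72%. The 64 tested sites of non-RP genes had a median of 0.957% and a range of 0.00374 to 87.2%. In a transcript with more annotated reads a rarer site reaches the minimum of 10 reads. The 2 classes were also placed differently. Of 71 RP sites, 15 lay between motif and annotated 3′SS and 56 upstream of the motif, against 62 and 18 of 80 non-RP sites.

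Strains were first compared by summing all reads of a class over the reads of its annotated junctions, with each annotated junction counted once per library. Sites upstream of the motif had a higher summed SEF in both mutants than in WT. Their summed SEF was 0.0688 and 0.0905% in fast, 0.0729 and 0.0721% in slow, and 0.0281 and 0.0284% in WT. The mutant libraries thus lay 2.43 to 3.22 times above WT in fast and 2.54 to 2.59 times in slow, and no mutant library overlapped WT. A single site, RPL26B 198, held 2218 of the 7024 reads of this class. Without it the summed SEF was 0.0415 and 0.0559% in fast, 0.0507 and 0.0535% in slow, and 0.0248 and 0.0220% in WT, a mean of 2.08-fold in fast and 2.23-fold in slow over WT. With 2 libraries against 2, an exact permutation test cannot go below p = 0.333. Reads of all libraries chose the members, so a site read mainly in mutants enters a sum through them. These sums and those below thus describe the sites and are no support for a difference.

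Sites between the motif and the annotated 3′SS differed less. Their summed SEF was 0.585 and 0.592% in fast, 0.616 and 0.631% in slow, and 0.512 and 0.501% in WT, so that fast lay 1.16-fold and slow 1.23-fold above WT, and again no mutant library overlapped WT. Without RPL34A 32, the site with the most reads, the means were 0.449% ± 0.0195 in fast, 0.481% ± 0.0323 in slow and 0.396% ± 0.00506 in WT (SD, n = 2). Split by gene group, slow overlapped WT in both groups and fast in neither. Non-RP sites of this class summed to 2.39 and 2.41% in fast, 2.19 and 2.54% in slow, and 2.20 and 2.22% in WT. RP sites summed to 0.321 and 0.314% in fast, 0.318 and 0.255% in slow, and 0.270 and 0.255% in WT.

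**Figure D2:**
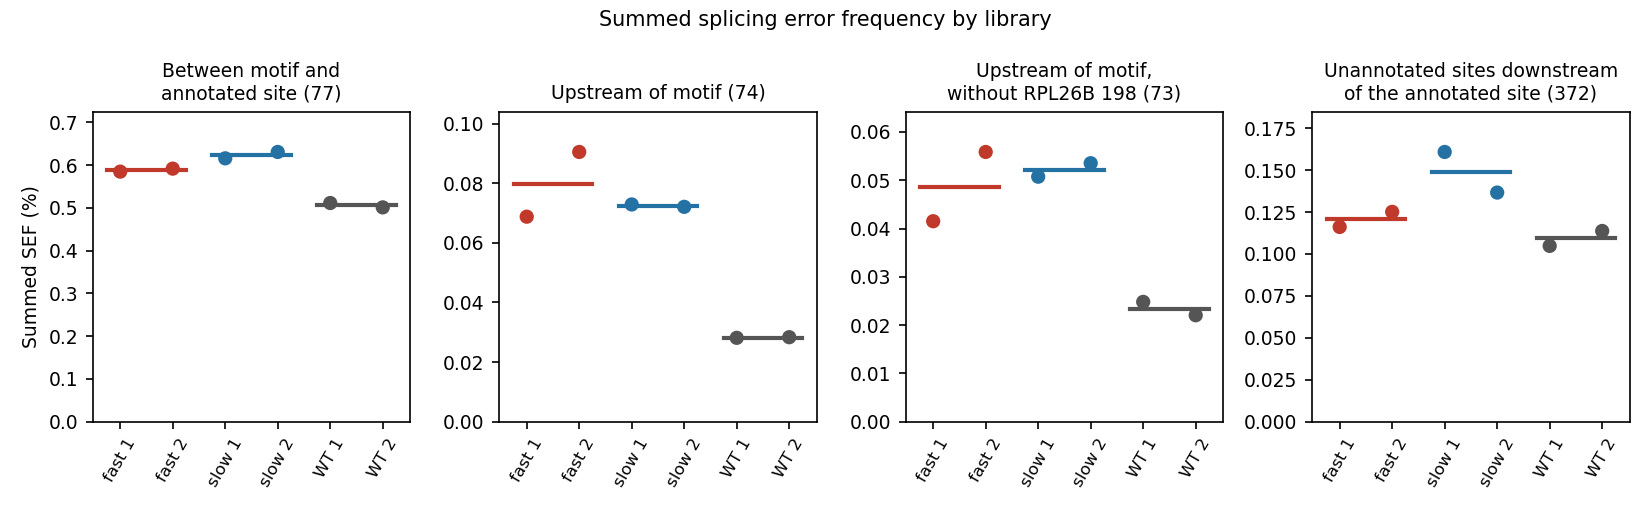
Summed SEF in percent in each library, for sites between the motif and the annotated 3′ splice site, for sites upstream of the motif with and without RPL26B 198, and for the 372 unannotated sites downstream of the annotated one. Points are libraries, lines are means of 2 and each axis starts at 0. WT reads 0.0281 and 0.0284% at the upstream sites, where every mutant library is at 0.0688% or more.

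Within the upstream class, RP and non-RP genes both stood above WT. The 56 RP sites summed to 0.0610 and 0.0703% in fast, 0.0529 and 0.0458% in slow, and 0.0168 and 0.0161% in WT. Without RPL26B 198 the RP sum was 0.0306 and 0.0314% in fast, 0.0277 and 0.0246% in slow, and 0.0130 and 0.00895% in WT. The 18 non-RP sites summed to 0.137 and 0.257% in fast, 0.220 and 0.253% in slow, and 0.118 and 0.122% in WT. RPP1B 137 is among them, with 22 reads, all in slow replicate 1. Most of the non-RP reads came from LSM2 47, and without it the sum was 0.0381 and 0.0387% in fast, 0.0556 and 0.0555% in slow, and 0.0253 and 0.0268% in WT. The 27 upstream sites with fewer than 10 reads showed no such order, with 0.00228 and 0.00110% in fast, 0.00125 and 0.00303% in slow, and 0.00114 and 0.00283% in WT.

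By distance alone, the 68 sites more than 60 nt from the annotated 3′SS had 0.0640 and 0.0712% in fast, 0.0606 and 0.0520% in slow, and 0.0210 and 0.0179% in WT. They include RPL26B 198, and their sum without it is not given here. The 17 sites within 10 nt had 1.78 and 2.04% in fast, 2.40 and 2.34% in slow, and 1.91 and 2.16% in WT, and fast overlapped WT there. The 39 sites at 11 to 30 nt and the 27 at 31 to 60 nt stood 1.37-fold and 1.21-fold above WT in fast, and 1.32-fold and 1.20-fold in slow. Distance and position relative to the motif go together, with median distances of 147 nt upstream of the motif and 23 nt after it.

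**Figure D3:**
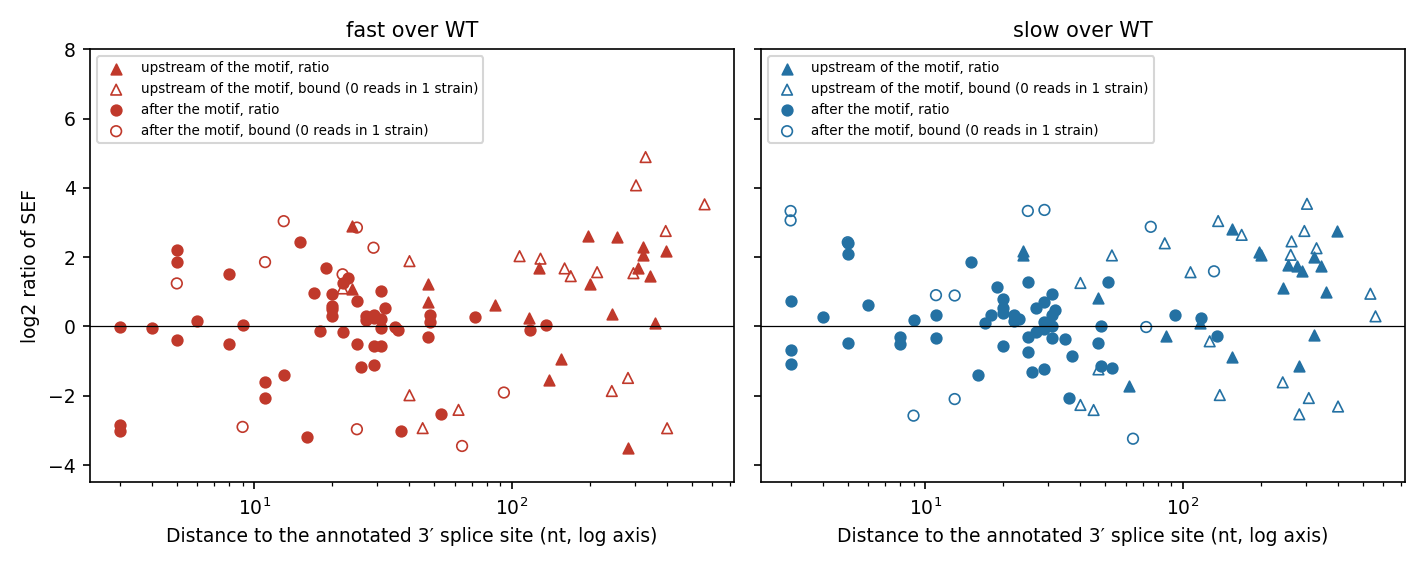
log2 ratio of SEF (reads summed over 2 libraries) against distance to the annotated 3′ splice site in nt on a log axis, for tested members in fast and slow over WT. Triangles are sites upstream of the motif and circles those after it. Open symbols are bounds, where a strain without reads was given 3 counts, and sites with 3 reads or fewer in both strains are not drawn. Beyond 100 nt most triangles lie above 0, with some below it.

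No single site passed the main test, which called no unannotated event of any kind, while other fits called a few. edgeR's quasi-likelihood test on the ratio of unannotated to annotated reads called 0 of 112 tested members at an adjusted p under 0.05 in fast against WT, in slow against WT and in fast against slow, beside 0% of all 534 tested unannotated events. The smallest adjusted p among members was 0.784 in fast and 0.867 in slow. At an unadjusted p under 0.05 stood 7 members in fast, 6 in slow and 2 in fast against slow. Of all 534 events, 18, 15 and 16 did so. The errors of this fit were wide, with an SE of 1.03 on the log2 ratio of fast to WT at RPL34A 32, the member with the most reads, against 0.19 in the offset fit below. DESeq2 called 5 members in fast, all higher than in WT, beside 2.62% of all events. It called none in slow, beside 0.375%, with 17 members at an unadjusted p under 0.05, beside 53 of 534 events. In fast against slow it called 1, beside 0.375%. edgeR with the annotated reads as an offset was an alternative added after seeing the data. It called 3 members higher in fast, beside 1.31% of all events, and 1 higher in slow, beside 0.375%. In fast against slow it called 0, beside 0.562%, with 2 members at an unadjusted p under 0.05, beside 18 of 534 events. edgeR on TMM scaled read levels, not set against the annotated junction, called 2 members higher in fast, beside 1.5% of all events, 1 higher in slow, beside 0.375%, and 1 lower in fast than in slow, beside 1.12%.

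Fisher's exact test pooled both libraries of a strain, with thresholds of 0.01 for p and 0.03 for the false discovery rate, and covers counting error only. It called 36 of 112 members higher and 20 lower in fast, beside 32.4% and 20.4% of all tested events. In slow it called 39 higher and 21 lower, beside 26.4% and 22.1%. The shares of members were thus 32.1% and 17.9% in fast and 34.8% and 18.8% in slow, with those in fast near the background. Both fast libraries lay above both WT libraries at 23 members and below at 8, beside 18.4% and 10.3% of all events. Both slow libraries lay above at 25 and below at 12, beside 13.5% and 12.2%.

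The 2 position classes differed in these descriptions. Of the 47 tested upstream sites, 15 in fast were called higher by Fisher's exact test with both libraries above WT and 1 was called lower with both below, and in slow 12 and 4. Over all 534 tested events the same rule gave 18% higher and 8.43% lower in fast, and 11.8% and 9.55% in slow. Of the 65 tested sites between motif and annotated 3′SS, 7 were higher and 6 lower in fast, and 11 and 5 in slow. The median log2 ratio of SEF to WT was 1.46 in fast and 1.41 in slow over upstream sites with a defined ratio (38 and 42), against 0.10 and 0.21 over sites of the other class (60 and 64). Over all tested events it was 0.21 and 0.14. A site without reads in a strain entered at the floor of 3 counts over its 2 libraries. A site read mainly in mutants passes the minimum through them, so that these counts describe the sites and are no support for a difference.

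RPL26B encodes a protein of the large ribosomal subunit, and its 198 nt site was the upstream site with the most reads. It had 613 and 755 reads in fast, 314 and 348 in slow, and 70 and 118 in WT. Its SEF was 0.545 and 0.691% in fast, 0.488 and 0.412% in slow, and 0.0722 and 0.131% in WT. Both mutants lay clear of WT, by 6.15-fold in fast and 4.43-fold in slow over the summed reads. edgeR's quasi-likelihood test on the ratio gave an adjusted p of 0.784 in fast, the offset fit of edgeR 3.71e-13 in fast and 6.73e-09 in slow, and DESeq2 0.0061 in fast and 0.0661 in slow, at n = 2 per strain. The site is in frame but meets a stop codon.

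The same intron held 2 overlapping sites at 397 and 395 nt. RPL26B 397 had 32 and 38 reads in fast, 33 and 37 in slow, and 2 and 11 in WT, which is 4.55-fold WT in fast and 6.77-fold in slow. RPL26B 395 had 9 and 15 reads in fast and none in slow or WT. That is at least 6.76-fold higher in fast than in WT, with the floor of 3 counts over the strain. Here and below, such a bound covers counting error only. Fisher's exact test called both sites higher in fast, but only RPL26B 397 in slow.

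RPL13B, which also encodes a large subunit protein, had 2 sites 8 nt apart behind the same window. RPL13B 330 had 55 and 55 reads in fast, 8 and 3 in slow, and 0 and 0 in WT. The fast libraries were the highest and did not overlap slow, and the site was at least 29.6-fold higher in fast and at least 4.78-fold higher in slow than in WT. RPL13B 322 had 109 and 87 reads in fast, 60 and 39 in slow, and 16 and 16 in WT. Its SEF of 0.370 and 0.277% in fast and 0.410 and 0.169% in slow overlapped between the mutants, and both stood above the 0.0607 and 0.0701% of WT. DESeq2 gave RPL13B 330 an adjusted p of 0.00325 in fast and 0.327 in fast against slow.

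RPS7A, a small subunit gene, held 5 members, the most of any intron together with RPL27A. Its 343 nt site had 109 and 122 reads in fast, 96 and 119 in slow, and 37 and 39 in WT, 2.77-fold and 3.38-fold over WT. RPS7A 323 and RPS7A 86 overlapped between the strains, with 46 and 0 reads in fast, 0 and 7 in slow and 10 and 0 in WT at RPS7A 323. RPS7A 308 had 21 and 32 reads in fast, 0 and 0 in slow, and 4 and 11 in WT. It was the only tested member that lay above WT in both fast libraries and below WT in both slow libraries. RPS7A 219 was read in slow replicate 1 alone, with 6 reads, and was not tested.

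RPL27A, a large subunit gene, had 5 clustered sites before its motif, and they did not move together. RPL27A 296 had 0 and 9 reads in fast, 14 and 2 in slow and none in WT. RPL27A 283 had 0 and 2 reads in fast, none in slow, and 15 and 7 in WT, and was called lower in both mutants by Fisher's exact test. RPL27A 264 was read 13 times, all in slow replicate 2. RPL27A 277 and RPL27A 287 had 11 and 3 reads in all.

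RPL37A 303, in another large subunit gene, had 34 and 19 reads in fast, 4 and 25 in slow, and 0 and 0 in WT. With the floor of 3 counts for WT, it was at least 16.8-fold higher in fast and at least 11.6-fold higher in slow. RPL36B 169 likewise had no WT reads, with 3 and 7 in fast and 9 and 7 in slow. RPS6B 256, in a small subunit gene, had 51 and 120 reads in fast, 24 and 49 in slow, and 12 and 14 in WT. Both mutants lay clear of WT there, by 5.99-fold in fast and 3.43-fold in slow. RPS6B 256 lies outside the rule for named sites and was chosen after its values were seen. Among upstream sites called lower were RPS10B 139, with 0 and 5 reads in fast, 0 and 0 in slow and 9 and 3 in WT, and EFB1 47, in the gene of a translation elongation factor, with 11 and 0 in fast, 0 and 0 in slow and 2 and 6 in WT. Both were called in slow alone.

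LSM2 encodes a subunit of the Lsm rings that bind U6 snRNA and decaying mRNA. Its 47 nt site lay 11 nt before the A of the motif taken for this intron. It had 230 and 517 reads in fast, 281 and 472 in slow, and 220 and 207 in WT. Its SEF of 8.05 and 15.8% in fast and 8.91 and 9.19% in slow stood above the 5.38 and 4.99% of WT. The fast replicates differed from each other by more than the slow ones did from WT. The offset fit of edgeR called it in fast (adjusted p = 0.0161), and edgeR's main test did not (0.788).

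**Figure D4:**
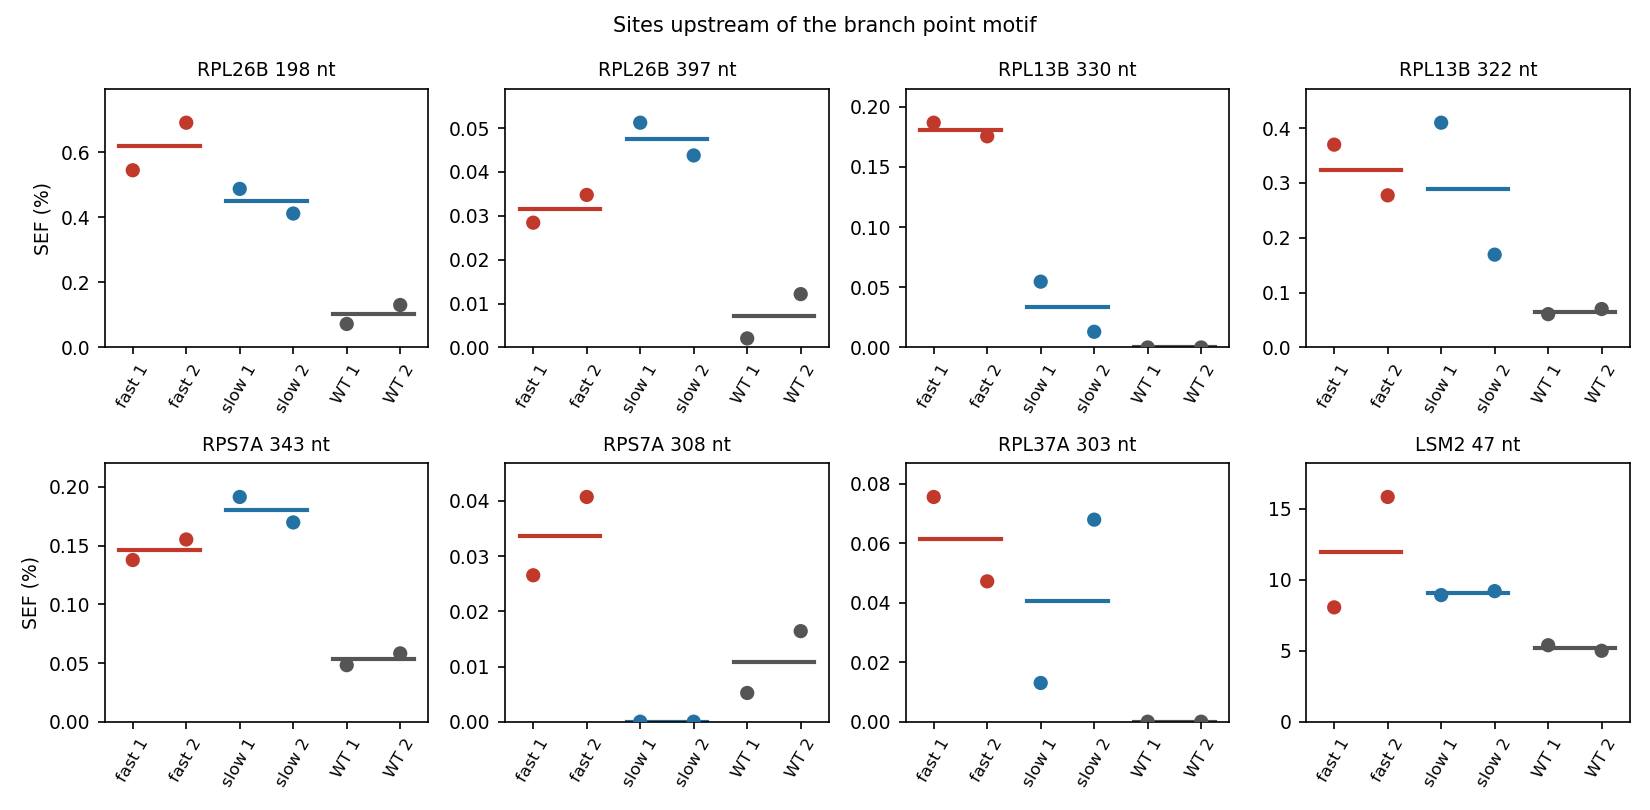
SEF in percent in each library at 8 sites upstream of the branch point motif, named by gene and distance to the annotated 3′ splice site. Points are libraries, lines are means of 2 and each axis starts at 0. The WT libraries are the lowest in 7 panels, while at RPS7A 308 the slow libraries are, at 0.

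Among sites after the motif, SEC14 29 and RPL16A 35 overlapped between the strains although both had many reads. SEC14, the gene of a phosphatidylinositol transfer protein of the secretory pathway, had 553 and 629 reads at its 29 nt site in fast, 355 and 462 in slow, and 423 and 415 in WT. The SEF was 8.17 and 11.4% in fast, 7.48 and 8.12% in slow, and 8.24 and 8.08% in WT, and both mutants overlapped WT. The site is an AAG 10 nt after the branch point A and the first AG behind it. RPL16A 35, a GAG in a large subunit gene, had SEFs of 0.968 and 1.17% in fast, 0.962 and 0.730% in slow, and 1.32 and 0.792% in WT, and also overlapped.

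RPL34A 32 had the most reads of all members, with 1292 and 1104 in fast, 933 and 980 in slow, and 881 and 769 in WT. Its SEF was 1.88 and 2.02% in fast, 1.89 and 1.84% in slow, and 1.30 and 1.42% in WT, higher in every mutant library, by 1.44-fold in fast and 1.38-fold in slow. Its neighbour RPL34A 36, a GAG 4 nt closer to the branch point, had 23 and 24 reads in fast, 5 and 5 in slow, and 20 and 30 in WT. At that site the slow libraries lay below WT, at 0.238 of the WT frequency, and fast overlapped WT.

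Some transcripts used an unannotated site at a high frequency, and SPT14 25 was read more often than the annotated site in some libraries. SPT14 encodes a subunit of the enzyme that starts GPI anchor synthesis, and its 25 nt site had an SEF of 105 and 35.8% in fast, 141 and 48.6% in slow, and 72.5 and 120% in WT. Replicates of each strain differed widely there and all strains overlapped. SPT14 20 stood at 16.5 and 7.75% in fast, 30 and 7.01% in slow, and 4.29 and 13.2% in WT. UBC12 48, in the gene of the conjugating enzyme for the ubiquitin-like protein Rub1, had 58.2 and 38.3% in fast, 29.9 and 41.1% in slow, and 50.9 and 22.0% in WT, with overlap throughout. YCL002C 22 had 36.7 and 34.6% in fast, 30.3 and 62.0% in slow, and 34.3 and 46.1% in WT.

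APE2 spliced to 2 AAGs 7 nt apart. The nearer one, APE2 18, had 41.5 and 47.8% in fast, 41.8 and 78% in slow, and 51.0 and 46.8% in WT, and overlapped. The farther one, APE2 25, had 22.3 and 9.91% in fast, 20.7 and 24.6% in slow, and 8.59 and 10.3% in WT, and only slow lay clear of WT, by 2.43-fold. RPS23B 17, in a small subunit gene, had 0.181 and 0.165% in fast, 0.0923 and 0.0970% in slow, and 0.0555 and 0.123% in WT, so that fast lay clear of WT by 1.96-fold and slow overlapped. TAD3 5, in the gene of a tRNA editing subunit, had 11.3 and 14.3% in fast, 13.6 and 11.1% in slow, and 13.8 and 20.7% in WT. Both slow libraries lay below WT there, at 0.718 of the WT frequency, and fast overlapped WT.

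Both introns shown above with a mismatched motif had a site that was higher in each mutant library. UBC8, the gene of a ubiquitin-conjugating enzyme, had SEFs of 22.6 and 17.5% in fast, 15.7 and 11.9% in slow, and 5.94 and 6.16% in WT at 19 nt, or 3.21-fold and 2.21-fold over WT. YBR062C 5 had 14.9 and 5.78% in fast, 10.9 and 7.62% in slow, and 2.48 and 1.72% in WT. The other 7 sites of this kind went in mixed directions. Among them, SUS1 20 was called higher in both mutants by Fisher's exact test but overlapped WT, and TAD3 5 lay below WT in slow. The 9 together summed to 9.14 and 8.79% in fast, 7.18 and 8.20% in slow, and 7.14 and 8.32% in WT.

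**Figure D5:**
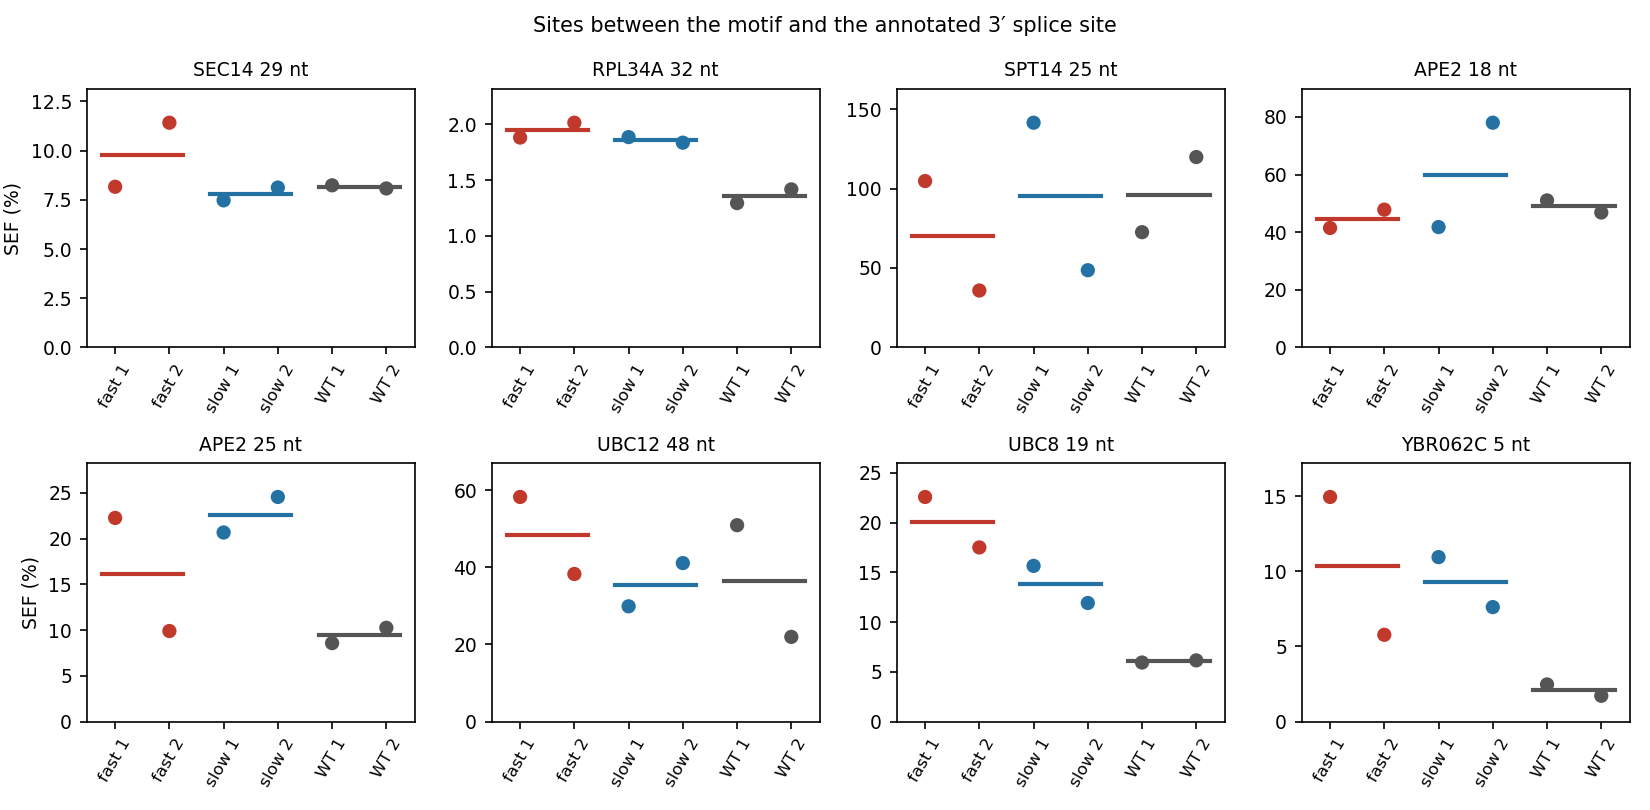
SEF in percent in each library at 8 sites between the branch point motif and the annotated 3′ splice site. Points are libraries, lines are means of 2 and each axis starts at 0. The mutants lie above WT at RPL34A 32, UBC8 19 and YBR062C 5, and the strains overlap at SEC14 29, SPT14 25, APE2 18 and UBC12 48.

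The largest changes after the motif were at sites with few reads. DYN2 25, in the dynein light chain gene, had 11 and 17 reads in fast, 27 and 13 in slow, and 0 and 0 in WT, at least 7.23-fold higher in fast and at least 10.1-fold in slow. RAD14 13, in a nucleotide excision repair gene, had 12 and 20 reads in fast, 0 and 9 in slow, and 0 and 0 in WT. REC102 29, in a meiotic recombination gene with 76 annotated reads in all, had 5 and 3 reads in fast, 12 and 21 in slow, and 0 and 0 in WT. In fast replicate 2 its annotated junction had no reads, so that its SEF is undefined there.

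Sites called lower in fast with both libraries below WT included VPS75 16 in a histone chaperone gene, with 1 and 3 reads in fast, 0 and 10 in slow and 21 and 4 in WT. OST5 37, in a gene of the oligosaccharyltransferase, had 0 and 4 reads in fast, 0 and 19 in slow and 8 and 23 in WT. COF1 11 in the cofilin gene had 3 and 10 in fast, 11 and 23 in slow and 18 and 18 in WT, and NCE101 53 had 6 and 0 in fast, 19 and 0 in slow and 16 and 13 in WT. HNT2 26 was the only one of the 5 called lower in both mutants with all libraries below WT, with 16 and 4 reads in fast, 0 and 21 in slow, and 19 and 17 in WT. Replicates of a strain often disagreed at such counts. VPS75 8 had more reads, with 125 and 164 in fast, 56 and 156 in slow and 146 and 137 in WT. Its SEF was 8.86 and 9.69% in fast, 5.94 and 11.9% in slow, and 13.8 and 12.7% in WT. It was also called lower in both mutants with all libraries below WT, and was chosen after its values were seen. Of the 112 tested members, 19 were read in a single library, among them VPS29 3 with 32 reads and NCE101 75 with 33 reads, all in slow replicate 1, both chosen after their values were seen. Without molecular identifiers such reads can be copies of 1 molecule.

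The farthest sites lay in long introns. MPT5, the gene of a Puf family RNA-binding protein, had sites 559 and 534 nt upstream, of which MPT5 559 had 15 and 10 reads in fast, 5 and 2 in slow, and 0 and 0 in WT. Its annotated junction had 381 reads in all, so that the SEF was 34.9 and 30.3% in fast, 7.46 and 1.50% in slow and 0% in WT, at least 11.5-fold higher in fast than in WT. MPT5 534 was read 11 times, in slow replicate 1 alone. RPS22B 400 was read 17 times, in WT replicate 1 alone. The maximum distance was 664 nt and the median 48 nt.

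By gene group, the 28 tested sites of large subunit genes included 12 that were called higher in fast by Fisher's exact test with both libraries above WT and 1 called lower with both below, and 9 and 3 in slow. Their median log2 ratio was 1.50 in fast and 1.41 in slow. The 20 tested sites of small subunit genes had 4 higher and 0 lower in fast and 3 and 2 in slow, with medians of 0.62 and 0.11. Non-RP genes had 6 higher and 6 lower of 64 in fast and 11 and 4 in slow, with medians of 0.20 and 0.31. The background over all tested events was 96 higher and 45 lower of 534 in fast and 63 and 51 in slow, with medians of 0.21 and 0.14.

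Smaller groups had few sites. Of 8 tested sites in ubiquitin and proteasome genes, 1 was higher in fast and 2 in slow, and none was lower. Of 14 in the vesicle traffic list, 1 was higher and 2 lower in fast, and 1 and 1 in slow, with DYN2 25 higher in both mutants and the lower sites all in VPS75. Dynein light chain and the VPS75 histone chaperone are not parts of vesicle coats or of the fusion machinery. RNA processing and export genes had 1 higher of 4 in fast, 2 higher and 1 lower in slow. The 4 tested sites in the list of nuclear genes of mitochondrial proteins all lay in MPT5 and APE2. MPT5 559 was higher in fast and APE2 25 in slow. MPT5 encodes the Puf family RNA-binding protein named above and APE2 an aminopeptidase, so these sites do not describe mitochondrial proteins as a group. The 3 tested sites of meiosis genes all lay in 1 intron of REC102, and 2 were higher in slow. Its annotated junction had 76 reads in all. The single tested site of actin cytoskeleton genes, COF1 11, was lower in fast.

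Unannotated 3′SSs downstream of the annotated site stood closer to WT than sites upstream of the motif did, but in slow they stood farther from WT than sites between the motif and the annotated 3′SS. The 372 of them summed to 0.116 and 0.125% in fast, 0.161 and 0.137% in slow, and 0.105 and 0.114% in WT, 1.10-fold and 1.36-fold over WT. Unannotated 5′ splice sites stood at 1.10-fold in fast and 1.17-fold in slow where they lay upstream (98 sites), and at 1.03-fold and 1.11-fold downstream (173 sites). All 151 sites described here together stood at 1.40-fold in fast and 1.48-fold in slow, with 0.235 and 0.256% in fast, 0.259 and 0.261% in slow, and 0.177 and 0.175% in WT. These are values of libraries side by side, and the difference between kinds of site was not tested.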

How the data were processed

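RNA of 3 upf1Δ yeast strains was analysed, with 2 libraries each, assigned from the sample labels. The authors sequenced strand-specific paired-end libraries of total RNA, with reads of 150 bases, and aligned them with STAR to the R64 genome (sacCer3), as the submitters' processing notes and the methods say. The sources used here do not give the version of STAR. Per library the authors deposited a table of junctions with counts of unique and of multiply mapped reads. STAR reports an unannotated canonical junction only with an overhang of at least 12 bases on both sides. Reads of near-identical paralogs can be lost as multiply mapped. The deposited read-class tables were not used. Depth was 4127729 to 6863818 unique split reads per library. Without molecular identifiers, reads can be copies, and Fisher's test covers counting error only.

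Genome letters were read from RefSeq R64, in which the ends of all members matched. SEF was taken from unique reads. Sites with at least 10 unannotated and 10 annotated reads over the libraries were tested by the quasi-likelihood test of edgeR 4.0.16 in R 4.3.3, together with all 534 such unannotated events. Both junctions of an event entered as columns of the same library, whose effect was fitted, and the strain changed their ratio. P-values were adjusted by Benjamini-Hochberg over all events, and 0.05 was the threshold. Fisher's exact test was two-sided, with the thresholds of the study (0.01 for p, 0.03 for the false discovery rate). Folds use reads summed over a strain, with a floor of 3 counts, so that a fold given as a bound covers counting error only. DESeq2 1.42.0, other filters, TMM scaled levels and libraries left out were alternatives, and the offset fit and a filter of 100 reads were added after seeing the data. The fits were also run on simulated reads, and how many known changes each recovered is not given here. Summaries used Python 3.11.15 with pandas 2.3.3, numpy 2.4.6 and matplotlib 3.10.9.

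Named sites were those with 10 or more reads in genes the study names for 3′SSs, the 6 largest changes per mutant and direction called by Fisher's exact test with both libraries on the same side of WT (no site was called by edgeR), the 8 highest SEFs with 30 or more reads, the 6 most read, the 5 farthest with 10 or more reads, and the introns with most members. Members, lists and rules were chosen with earlier results of these data known.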

Additional observations from a re-analysis of the deposited data

Results flagged for a closer look

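RPS7A 308, a site 308 nt upstream of the annotated 3′SS of a small subunit gene, differed between the mutants. It had 21 and 32 reads in fast, 0 and 0 in slow, and 4 and 11 in WT, so that both fast libraries lay above WT and both slow libraries below it. The mean SEF was 0.0336% in fast, 0 in slow and 0.0108% in WT, a difference of 0.0336 percentage points between fast and slow. DESeq2 gave fast against slow an adjusted p of 0.0424 at n = 2 per strain, and edgeR's quasi-likelihood test 0.85, with 2 of 2 fast libraries above both slow libraries. It was the only one of 112 tested members with opposite sides in the mutants.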

How the results depend on the processing

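The main edgeR test called no member in any comparison, and neither did it with a filter of 2 reads, of 100 reads or that of the study, with multiply mapped reads added, with GT-AG junctions only, without any 1 library (0 to 0 in each comparison), or with the replicate block (0 in each comparison). Replicate numbers did not pair the libraries: the replicate differences of events with at least 100 reads correlated at 0.109 between fast and WT, 0.0254 between slow and WT and -0.0148 between fast and slow. DESeq2 called 5 members in fast and 1 in fast against slow. TMM scaled levels gave 2 in fast, 1 in slow and 1 in fast against slow, the last being TAN1 6, lower in fast. The offset fit gave 3 in fast and 1 in slow, and with a filter of 100 reads 1 in fast and 1 in slow, which was RPL26B 198 in both. The cause was not tested.

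Fisher's exact test called 56 members in fast and 60 in slow. With the filter of the study it called 37 of 61 tested in fast and 36 in slow, since fewer sites were tested. Without 1 library there were 40 to 54 calls in fast and 48 to 56 in slow, of which only 34 to 43 and 39 to 44 were calls of the full data.

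The summed SEF of all sites was 1.40 times WT in fast and 1.48 times in slow. The median over sites was 1.24 and 1.26 times. Multiply mapped reads gave 1.50 times in slow, and leaving out RPL34A 32 also 1.50 times in slow. Without RPL26B 198, upstream sites stood at 2.08 times in fast and 2.23 times in slow, and without RPL34A 32 the sites after the motif stood at 1.13 times in fast. Without 1 library, upstream sites stood at 2.44 to 3.20 times WT in fast and at 2.55 to 2.58 times in slow. With members read in both WT libraries alone (13 sites) they stood at 2.96 and 2.59 times. Of the log2 ratios of the 43 named site comparisons called by Fisher's exact test with both libraries on the same side of WT, which that choice favours, none of 638 values under the alternatives changed sign. In the other 41 named comparisons 54 of 594 values changed sign, in 28 of the comparisons.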
